A study of Mus musculus with 4 samples.

Results

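The genes described here are 10 genes by which macrophages take up, carry, store, break down and export lipid: Apoe, Trem2, Lpl, Fabp5, Cd36, Plin2, Abca1, Lipa, Gpnmb and Acsl1. They were taken by name from a list whose rule uses no measured value, though it was drawn up with earlier results of these data known, and are 10 of the 31053 genes in the count tables. All 10 were found, each under 1 identifier. They were read across macrophage, monocyte and dendritic cell classes and melanoma cells of B16 tumours, in 1 library from wild-type mice and 1 from mice labelled as Atpif1 knockout.

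Macrophages meet lipid as lipoproteins, free fatty acids and the membranes of dead cells. Receptors such as TREM2 and CD36 bind it, lipoprotein lipase releases fatty acids outside the cell, and acid lipase frees cholesterol and fatty acids in the lysosome. Inside the cell, binding proteins carry fatty acids, acyl-CoA synthetases activate them, perilipin-coated droplets store them, and ABCA1 with apolipoprotein E moves cholesterol out. In tumours, damaged tissue and fat, macrophages that carry TREM2, GPNMB and apolipoprotein E are often called lipid-associated macrophages.

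The tumours grew from B16 cells, a transplantable mouse melanoma line, placed in the right flank of male C57BL/6 mice and taken on day 12. The mice were wild type (library labelled WT) or labelled as ATPIF1 knock-out (library labelled KO), a gene whose product inhibits the mitochondrial ATP synthase. Suspensions of the tumours of a genotype were mixed, sorted for CD45, the common leukocyte surface protein, and made into 1 droplet-based RNA library each with a chemistry that reads the 5′ end of transcripts. The submitters name 6 mice, which may be the number of each genotype or of both, and do not describe the knockout allele or the cells it affects. The injected tumour cells keep their own genotype in either host. Each genotype is thus 1 pool with no replicate, and differences between the libraries are given with no test. A difference between the labelled genotypes cannot be told apart from a difference between 2 pools, sorts or libraries.

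The libraries held 35152477 (WT) and 24385843 (KO) unique molecular identifiers (UMIs, the tags that mark single captured transcripts), of which 4370 and 3211 cells passed the filters. Of those cells 2604 and 1982 were placed in the 12 classes described here. Median depth was 8352 and 6255 UMIs in C1q-high macrophages, against 2684.5 and 2247.5 in T cells. Levels are the summed UMIs of a gene scaled to a class total of 1000000 (CPM). Over the 4 macrophage classes, the targeted gene Atpif1 had 721 CPM (95% counting interval 705 to 737) under the label WT and 794 CPM (773 to 815) under the label KO, so its level was not lower under the label KO. Which bases the knockout removes is not stated, so reads of this gene may check nothing about the label, and the libraries are named by their labels. Barcodes that occurred in both libraries numbered 29, against 19.0 expected by chance.

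Classes were cut from marker UMIs, none of them a member, and each name stands for cells that resembled the type by those markers. C1q-high macrophages (757 cells in the library labelled WT and 663 in that labelled KO) carried the complement genes C1qa, C1qb and C1qc. Ccl8 Cbr2 macrophages (101 and 76) carried markers of resident-like macrophages together with C1q. Ear2 Mgl2 macrophages numbered 56 and 78, and Arg1 Mmp12 macrophages, which are low in C1q, 289 and 151. Ly6c2 monocytes were split by interferon-induced genes into interferon-high (15 and 47) and interferon-low (127 and 66) cells. The other classes were type 1 (47 and 110), type 2 (188 and 172), migratory (146 and 72) and plasmacytoid (83 and 16) dendritic cells, melanoma cells (55 and 12) and an unnamed rest of myeloid cells (740 and 519). Each class is a range of a marker sum with cells close to its border. In C1q-high macrophages 28 and 32 cells lay within 25% of the threshold, and in Ear2 Mgl2 macrophages 10 and 10 did.

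The name lipid handling genes of macrophages held for most of the list, not for all of it. In C1q-high macrophages the counting interval of 9 (WT) and 10 (KO) of the 10 genes lay above that of T cells of the same library, and in type 2 dendritic cells that of 4 and 4 did. In the unnamed rest of myeloid cells that of 10 and 10 did, so this count did not set C1q-high macrophages apart. There 3 and 3 members stood above their level in empty droplets, and in C1q-high macrophages 8 and 10 did. The share of all genes above T cells was not counted. Apoe, Trem2, Lpl, Cd36, Plin2, Abca1 and Lipa had their highest class among the macrophages in both libraries. Gpnmb was highest in melanoma cells and Fabp5 in migratory dendritic cells, while Acsl1 was highest in migratory dendritic cells in the library labelled WT and in plasmacytoid dendritic cells in that labelled KO. Cells outside the 12 classes also held member UMIs: Plin2 was at 1012 CPM in 552 neutrophils of the library labelled WT and at 861 CPM in 26 of that labelled KO. Free RNA carries these genes too, and empty droplets held Apoe at 1308 and 1003 CPM and Fabp5 at 1063 and 529 CPM. The heat map of levels by class and library shows this layout for all 10 genes.

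**Figure D1:**
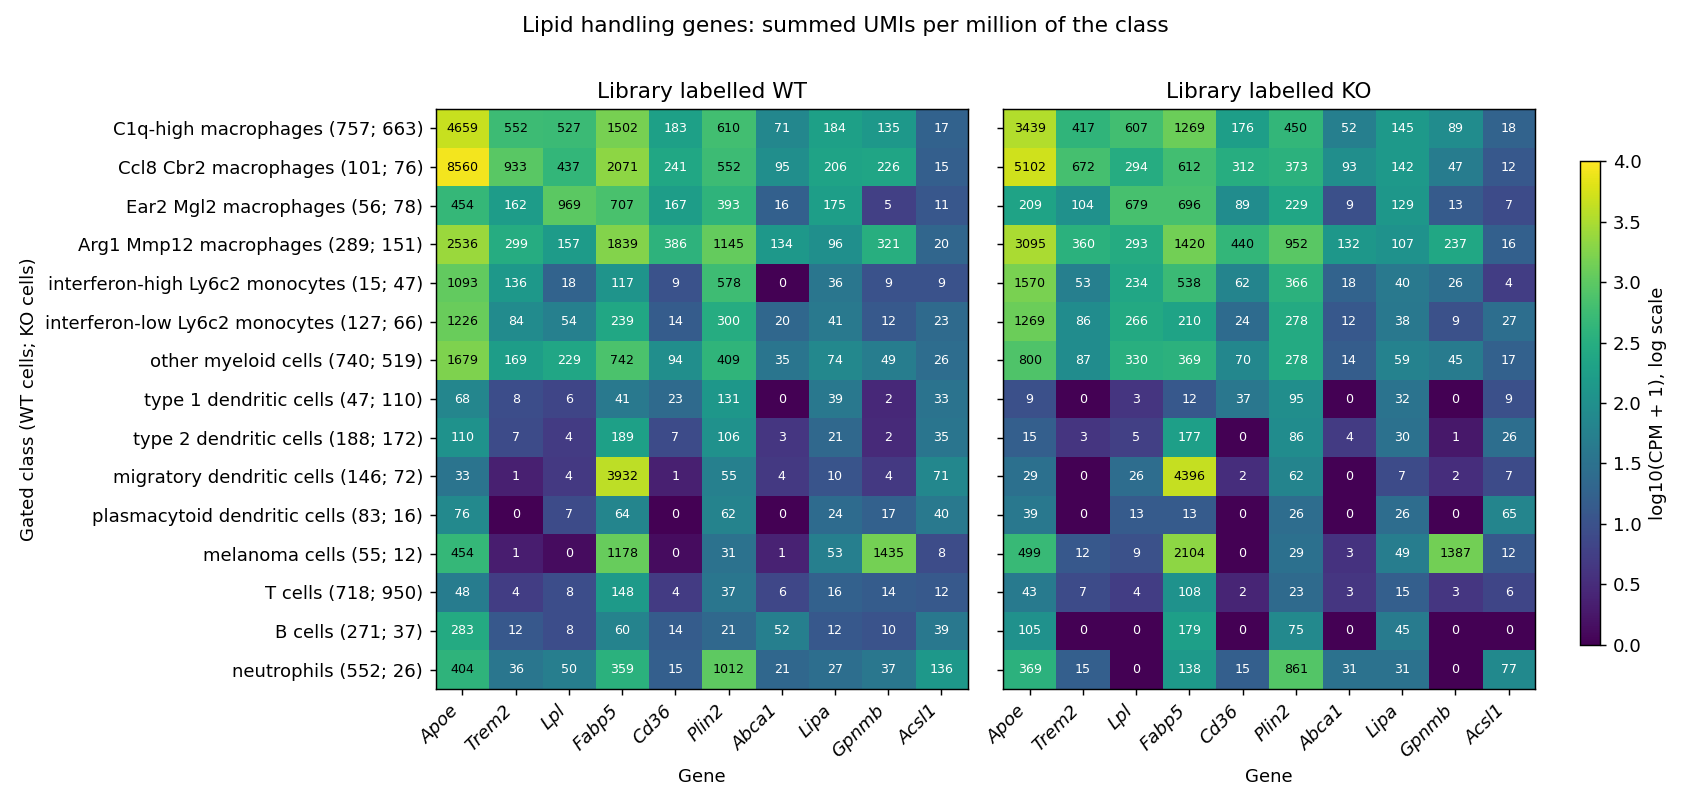
Level of each lipid handling gene (colour, log10 of CPM + 1; printed numbers are CPM), with cell classes in rows, genes in columns and 1 panel for each library. Apoe stands highest in Ccl8 Cbr2 macrophages (8560 and 5102 CPM), Gpnmb in melanoma cells (1435 and 1387 CPM) and Fabp5 in migratory dendritic cells (3932 and 4396 CPM).

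The surface receptors are Trem2 and Cd36. Trem2 (chr17:48346401-48352276 in the RefSeq annotation of GRCm38) encodes a receptor for lipids, lipoproteins and apolipoproteins that signals through Tyrobp. Its promoter is shown because Trem2 had at most 11 UMIs in any dendritic cell class, and promoter windows were found for 8 of the 10 members. The sequence is from RefSeq on GRCm38.p6, the 250 bases before the listed start at chr17:48346151-48346400, plus strand, with capitals marking the only match to TGANTCA, a motif bound by AP-1 factors. The match lies 9 bases before the start, and 6.75% of 32851 promoter windows of the same length hold the motif on either strand. The window also holds GAGGAA, the core bound by the myeloid factor PU.1, on the opposite strand 40 bases before the start, as 23.3% of windows do, and the matches do not overlap. A match of letters is a description and no evidence of binding.
Trem2: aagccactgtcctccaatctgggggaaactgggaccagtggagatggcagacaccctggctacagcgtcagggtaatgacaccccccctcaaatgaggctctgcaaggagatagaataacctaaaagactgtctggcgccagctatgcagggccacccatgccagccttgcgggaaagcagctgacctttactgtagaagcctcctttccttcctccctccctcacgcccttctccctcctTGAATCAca

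Trem2 reached 933 CPM (875 to 993) in Ccl8 Cbr2 macrophages of the library labelled WT and 672 CPM (602 to 747) in that labelled KO. C1q-high macrophages followed with 552 and 417 CPM and Arg1 Mmp12 macrophages with 299 and 360 CPM. These 3 classes stood in the same order in both libraries, but the intervals of C1q-high and Arg1 Mmp12 macrophages overlapped in the library labelled KO. In type 2 dendritic cells Trem2 had 11 and 4 UMIs. After each cell was thinned to 1000 UMIs, 37.8% (34.3 to 41.3) and 28.4% (24.95 to 31.95) of C1q-high macrophages had a Trem2 UMI, against 0.279% and 0.632% of T cells. Without thinning the shares were 79.0% and 67.0%.

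Cd36 (chr5:17781690-17888959) encodes a scavenger receptor that binds oxidised lipoproteins and carries long-chain fatty acids across the membrane. It was highest in Arg1 Mmp12 macrophages, with 386 CPM (359 to 414) and 440 CPM (396 to 487) in the libraries labelled WT and KO. Ccl8 Cbr2 macrophages held 241 and 312 CPM and C1q-high macrophages 183 and 176 CPM. The 2 receptors thus had different leading classes. In type 1 dendritic cells Cd36 was at 23.2 CPM (12 UMIs) and 37.5 CPM (48 UMIs), and in melanoma cells it had 1 UMI in the library labelled WT and none in that labelled KO, where 3 counts would be 8.70 CPM.

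Apoe and Lpl act on lipoproteins. Apoe (chr7:19696244-19701310) encodes apolipoprotein E, which macrophages secrete and which accepts cholesterol for export. It was at 8560 CPM (8385 to 8739) and 5102 CPM (4908 to 5303) in Ccl8 Cbr2 macrophages, at 4659 and 3439 CPM in C1q-high macrophages and at 2536 and 3095 CPM in Arg1 Mmp12 macrophages. No neighbouring intervals overlapped in this order in either library. Ear2 Mgl2 macrophages stood apart from the other macrophages with 454 and 209 CPM of Apoe, 10.3-fold (9.13 to 11.6) and 16.5-fold (14.01 to 19.55) below C1q-high macrophages. Among those 56 and 78 cells, the 2 cells richest in Apoe held 43.1% and 43.2% of its UMIs.

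Apoe was low in dendritic cells. Type 2 dendritic cells held 110 and 15.2 CPM, 42.5-fold (36.5 to 49.9) and 226-fold (145 to 375) less than C1q-high macrophages, and 2 cells held 60.4% of the UMIs in the library labelled WT. In thinned cells, 82.2% and 70.7% of C1q-high macrophages had an Apoe UMI, against 4.60% and 4.63% of T cells. Apoe UMIs per 10000 varied widely between single C1q-high macrophages, with quartiles of 12.4, 37.3 and 79.5 in the library labelled WT and of 4.80, 26.2 and 63.3 in that labelled KO.

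Lpl (chr8:68880555-68906932) encodes lipoprotein lipase, which splits triglycerides of lipoproteins into fatty acids. Ear2 Mgl2 macrophages, the class poorest in Apoe among the macrophages, were the richest in Lpl, with 969 CPM (893 to 1049) and 679 CPM (619 to 742). The 2 cells richest in Lpl held 31.1% and 26.9% of its UMIs in that class. C1q-high macrophages had 527 CPM (511 to 544) and 607 CPM (585 to 629), and the intervals of these 2 classes overlapped in the library labelled KO. Arg1 Mmp12 macrophages held 157 and 293 CPM. Among dendritic cells Lpl had between 3 and 6 UMIs in each of the type 1, type 2 and migratory classes of the library labelled WT. Thinned shares of cells with an Lpl UMI were 27.1% and 26.4% in C1q-high macrophages and 0.836% and 0.737% in T cells.

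Fabp5 and Acsl1 bind and activate fatty acids. Fabp5 (chr3:10012585-10016610) encodes a fatty acid binding protein of the cytosol, and the mouse genome holds near-identical copies of it, so its counts are uncertain where reads were shared with them. In migratory dendritic cells it was at 3932 CPM (3797 to 4071) and 4396 CPM (4197 to 4601), with a UMI in 112 of 146 and 63 of 72 cells. Type 2 dendritic cells held 189 and 177 CPM and type 1 dendritic cells 40.6 and 11.7 CPM, so Fabp5 was high in 1 of the 3 conventional dendritic classes. Among macrophages the order differed between the libraries. Ccl8 Cbr2 macrophages led in the library labelled WT (2071 CPM) and came below Arg1 Mmp12, C1q-high and Ear2 Mgl2 macrophages in that labelled KO (612 CPM). C1q-high macrophages held 1502 and 1269 CPM, Arg1 Mmp12 macrophages 1839 and 1420 CPM and Ear2 Mgl2 macrophages 707 and 696 CPM.

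Acsl1 (chr8:46471037-46536051) encodes a long-chain acyl-CoA synthetase and was the member least tied to macrophages. It was at 17.1 CPM (14.2 to 20.4) and 17.9 CPM (14.3 to 22.1) in C1q-high macrophages, where empty droplets held 33.5 and 12.8 CPM. Thinned shares of 1.45% and 2.56% of C1q-high macrophages stood beside 1.39% and 0.421% of T cells, so in the library labelled WT the share was close to that of T cells. Neutrophils held 136 and 76.9 CPM of Acsl1, more than any of the 12 classes, though the second value came from 26 cells. Migratory dendritic cells held 71.2 CPM (58 UMIs) in the library labelled WT and 7.17 CPM (3 UMIs) in that labelled KO, and 1 cell held 14 of the 58.

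Plin2 (chr4:86626910-86670217) encodes perilipin 2, a coat protein of lipid droplets. Arg1 Mmp12 macrophages held 1145 CPM (1099 to 1193) and 952 CPM (887 to 1021), 1.88-fold and 2.11-fold more than C1q-high macrophages with 610 and 450 CPM. Ccl8 Cbr2 macrophages had 552 and 373 CPM and Ear2 Mgl2 macrophages 393 and 229 CPM. In thinned cells, 63.0% and 58.9% of Arg1 Mmp12 macrophages had a Plin2 UMI, 39.6% and 32.4% of C1q-high macrophages, and 3.20% and 1.79% of T cells. Melanoma cells held 85 and 10 Plin2 UMIs.

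Abca1 (chr4:53030789-53159988) encodes the transporter that loads cholesterol onto apolipoproteins. Its transcription is known to rise with sterols through the receptor LXR, which binds direct repeats with a spacer. The site shown is the 1 match among the 11 windows of the members to such a repeat, searched as GGTNA and GGTCA with any 5 bases between them. The 30 bases are from RefSeq on GRCm38.p6 at chr4:53159940-53159969, minus strand, written along the gene, inside the RefSeq gene span. Capitals mark the match, which runs on the strand opposite to the gene, begins 67 bases before the start listed for Abca1 and overlaps no other motif searched. Of all promoter windows 0.177% hold this motif.
Abca1: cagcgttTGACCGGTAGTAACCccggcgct

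Abca1 was highest in Arg1 Mmp12 macrophages, at 134 CPM (118 to 150) and 132 CPM (108 to 159), and next in Ccl8 Cbr2 macrophages at 94.7 and 92.8 CPM. C1q-high macrophages held 70.8 and 52.3 CPM, and Ear2 Mgl2 macrophages had 10 and 6 UMIs. No Abca1 UMI was found in type 1 dendritic cells, for which 3 counts would be 5.80 and 2.34 CPM. Apoe and Abca1, which act together in export, had different leading classes, while Plin2, Cd36 and Abca1 shared theirs.

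Lipa (chr19:34492316-34527474) encodes lysosomal acid lipase. It was at 206 and 142 CPM in Ccl8 Cbr2, 184 and 145 CPM in C1q-high, 175 and 129 CPM in Ear2 Mgl2 and 96.4 and 107 CPM in Arg1 Mmp12 macrophages. Intervals of the first 3 of these classes overlapped in both libraries. Type 2 dendritic cells held 21.4 and 29.7 CPM and melanoma cells 53.0 and 49.3 CPM.

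Gpnmb (chr6:49036518-49058182) encodes a transmembrane glycoprotein of lysosomes and melanosomes, known both from melanocytes and from lipid-laden macrophages. Melanoma cells held 1435 CPM (1391 to 1480) and 1387 CPM (1265 to 1517), 4.46-fold and 5.84-fold more than the next class, Arg1 Mmp12 macrophages, with 321 and 237 CPM. Ccl8 Cbr2 macrophages held 226 CPM (198 to 257) and 47.4 CPM (30.4 to 70.5) and C1q-high macrophages 135 and 88.6 CPM, so the order of these classes differed between the libraries, with no overlap of their intervals in either. Type 2 dendritic cells had 3 and 1 Gpnmb UMIs. Of the Gpnmb UMIs in all cells that passed the filters, the 55 melanoma cells of the library labelled WT held 62.7% and the 12 of that labelled KO 35.0%.

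Since melanoma cells lead in Gpnmb, their RNA was counted in the macrophages. The 5 melanoma markers Pmel, Mlana, Dct, Tyrp1 and Tyr summed to 13462 and 14643 CPM in melanoma cells and to 31.9 and 20.6 CPM in C1q-high macrophages, with none of the 5 at 0. At the ratio of Gpnmb to those markers in melanoma cells, such RNA would carry 3.40 of the 135 and 1.95 of the 88.6 CPM of Gpnmb in C1q-high macrophages. In Ccl8 Cbr2 macrophages it would carry 7.57 of 226 and 2.62 of 47.4 CPM. Empty droplets held Gpnmb at 196 and 45.7 CPM, the first of them above the 135 CPM of C1q-high macrophages in the library labelled WT. This is the level within free RNA and not an amount carried into macrophages, so it is not set against the estimate above. Free RNA was an estimated 2.31% and 6.99% of the UMIs of C1q-high macrophages. The level in empty droplets was thus lower under the label KO, as in both of these macrophage classes. The Gpnmb promoter is shown because the gene is read in both melanoma cells and macrophages. These are the 250 bases before the start listed by RefSeq on GRCm38.p6, at chr6:49036268-49036517, plus strand. CATGTG, the core of the motif bound by the melanocyte factor MITF, has no match in this window on either strand, and 12.3% of promoter windows hold it.
Gpnmb: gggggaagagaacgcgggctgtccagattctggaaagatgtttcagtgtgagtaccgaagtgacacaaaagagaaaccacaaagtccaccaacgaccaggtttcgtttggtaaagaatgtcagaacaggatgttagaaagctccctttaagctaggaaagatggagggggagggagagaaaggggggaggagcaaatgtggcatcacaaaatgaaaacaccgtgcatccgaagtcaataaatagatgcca

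Genes whose levels followed the members most closely were taken by Pearson correlation of log2(CPM + 10) over the 12 classes in both libraries, 24 points that share library, depth and the class cuts, among 3917 candidate genes. Apoe was nearest to Itgb5 (r = 0.94), Ctsd (0.93) and Por (0.92). Trem2 was nearest to Itgb5 (0.97), Adgre1 (0.96) and Cd84 (0.96). Lpl was nearest to Plau (0.89), Dok2 (0.88) and Slc11a1 (0.88). Adgre1 encodes the macrophage surface protein F4/80 and Ctsd a lysosomal protease.

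Fabp5 was nearest to Cd63 (0.92), Nrp2 (0.89) and Rap2b (0.85), and Cd36 to Ccl24, Spp1 and Slc7a8 (0.91 each). Plin2 was nearest to Ccl2 (0.95), Fcgr3 (0.95) and Msr1 (0.94), the last of them a scavenger receptor for modified lipoproteins. Abca1 was nearest to Ecm1 (0.94), Pdpn (0.94) and Cd93 (0.93). Lipa was nearest to Blvra (0.96), Hexa (0.90) and Slc48a1 (0.90), of which Hexa is a lysosomal enzyme of ganglioside breakdown. Gpnmb was nearest to Mitf (0.93), Bsg (0.92) and Syngr1 (0.91), and Acsl1 to Epc1 (0.78), Cd7 (0.73) and Huwe1 (0.73).

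Among the members themselves, over the same 24 points, Apoe and Trem2 had r = 0.91, Trem2 and Plin2 0.89, and Cd36 and Abca1 0.89. Gpnmb and Plin2 had r = 0.15. Acsl1 had negative values with all 9 others, from -0.37 to -0.16. These values describe how the genes were spread over classes and are no test.

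Single cells held several members at once. Thinned to 3000 UMIs, the median C1q-high macrophage had UMIs of 4 members in both libraries (654 and 524 cells deep enough, 103 and 139 left out), and the share with 5 or more was 44.3% and 32.4%. Ccl8 Cbr2 macrophages had medians of 5 and 4, with 68.1% and 46.7% of cells at 5 or more. Arg1 Mmp12 macrophages had medians of 4 and 4 (39.3% and 42.1%) and Ear2 Mgl2 macrophages of 3 and 2 (19.2% and 9.21%). Type 1 dendritic cells had medians of 1 and 0, and type 2 and migratory dendritic cells of 1. The highest count in any cell was 9 of the 10 members.

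**Figure D2:**
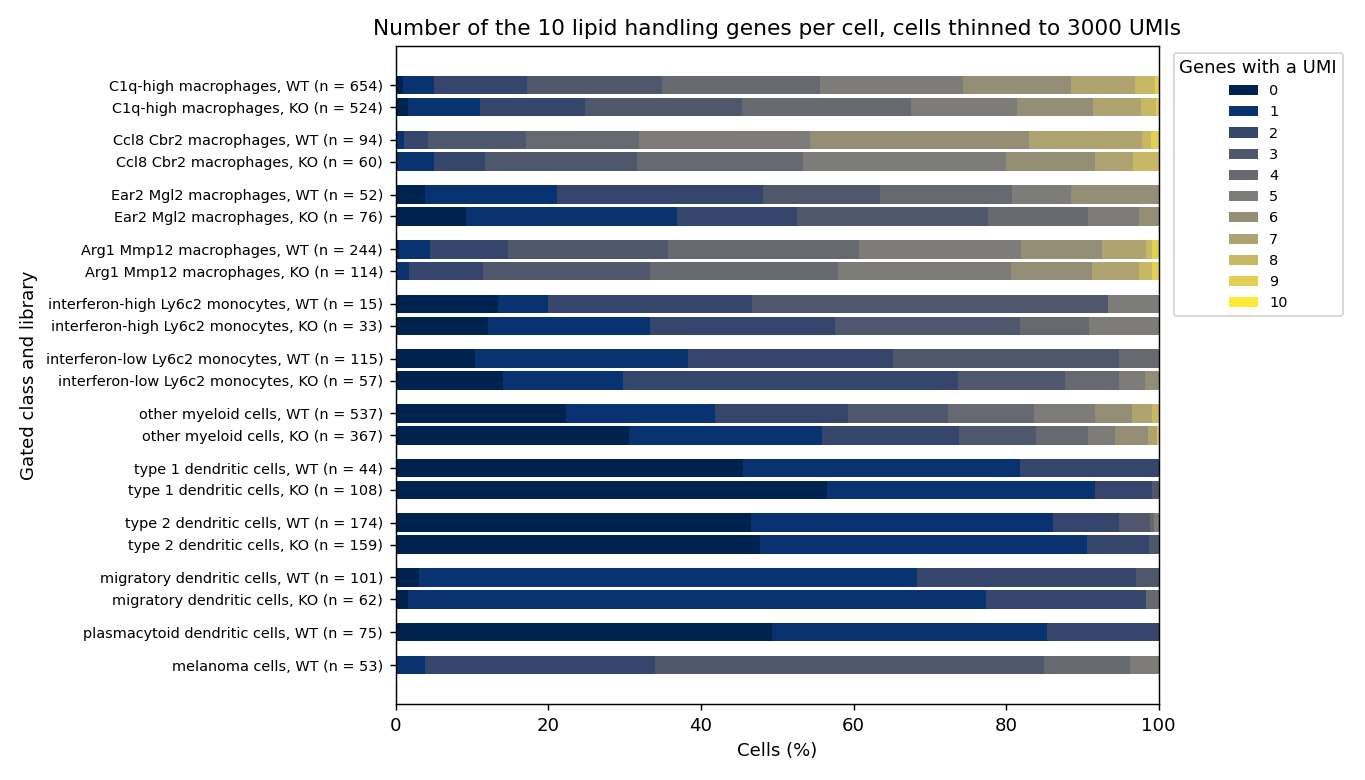
Share of cells (x axis, percent) by the number of lipid handling genes with a UMI after thinning to 3000 UMIs (colour), with 1 bar for each class and library that had enough cells. Macrophages other than the Ear2 Mgl2 class have medians of 4 or 5 members, and type 2 dendritic cells have a median of 1.

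Within C1q-high macrophages most pairs of members occurred in the same cells slightly more often than the product of their shares. Leaving out Acsl1, 33 of 36 pairs did so in each library, with a median ratio of 1.12 and 1.16. Most pairs with Acsl1, which 4.89% and 4.58% of these cells held, were below 1 in both libraries. Lipa with Acsl1 had 0.68 and 0.70, while Gpnmb with Acsl1 had 0.50 and 2.73. Among the 36 pairs without Acsl1, Cd36 and Gpnmb had the highest ratio in both libraries. They were found together in 8.56% of cells against a product of 5.15% in the library labelled WT, and in 6.49% against 3.15% in that labelled KO. Apoe and Lpl were on the other side of 1, with 37.5% against 39.3% and 34.9% against 35.4%. Cells of 1 class vary along C1q and other axes, so such ratios describe these libraries only. Pairs of genes outside the members were not counted.

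Some members also followed the C1q level across cells. Cells of the C1q-high, Ccl8 Cbr2, Arg1 Mmp12 and Ly6c2 classes were binned by C1q UMIs per 10000, from under 2 to 100 or more. In the library labelled WT, Apoe stood at 2051, 2489, 2936, 4265 and 7347 CPM from the lowest to the highest bin, and Trem2 at 220, 302, 369, 541 and 798 CPM. In that labelled KO, Apoe stood at 2604, 1920, 2367, 3603 and 5170 CPM, so its lowest bin was above the next 2, and Trem2 at 240, 240, 292, 456 and 618 CPM. Plin2 ran the other way from the bin of 2 to 15 upward, at 943, 741, 627 and 495 CPM and at 753, 522, 429 and 359 CPM. Gpnmb likewise ran from 333 down to 99.2 CPM and from 145 down to 60.8 CPM over those bins. In the lowest bin Plin2 was at 896 and 669 CPM and Gpnmb at 202 and 149 CPM. Apoe and Trem2 were thus richest in the highest bin. Plin2 in both libraries, and Gpnmb in that labelled WT, were richest in the bin of 2 to 15. The Plin2 intervals of that bin and of the lowest bin overlapped in both libraries. Bins under 15 hold other classes than those above, as 15 is the C1q threshold, so these runs also reflect differences between classes.

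**Figure D3:**
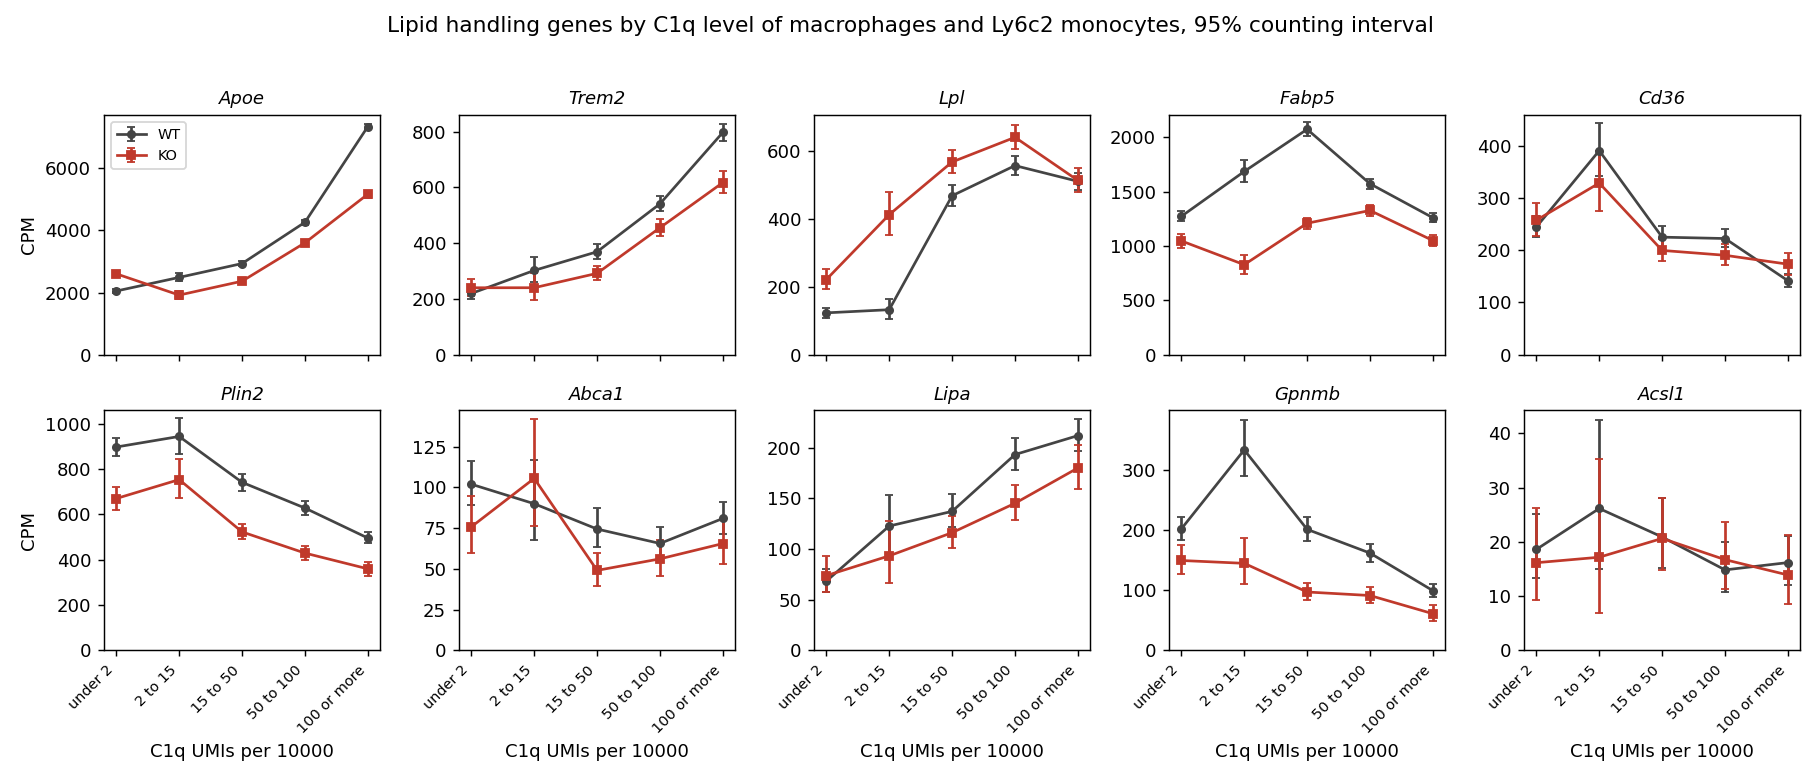
Level of each lipid handling gene (y axis, CPM, with 95% counting intervals) in bins of summed C1qa, C1qb and C1qc UMIs per 10000 (x axis), dark for the library labelled WT and red for that labelled KO. Apoe runs from 2051 to 7347 CPM across the bins in the library labelled WT, while Plin2 is lower in the highest bin (495 CPM) than in the lowest (896 CPM).

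The comparison between the libraries is given as the log2 ratio of KO over WT, with members counted as called at 1.5-fold or more and as measured with at least 20 UMIs over both libraries. In C1q-high macrophages, the largest named class, the ratio was below 0 for 8 of 10 members, as for 52.8% of all 10398 measured genes. The counting interval lay below 0 for 7 members, where it did for 13.9% of all measured genes, and above 0 for 1 member, Lpl, where it did for 13%. Intervals narrow with the UMIs of a gene, so these shares depend on level as well. Past 1.5-fold there were 0 members higher and 1 lower, where 6.96% of all measured genes were higher and 7.86% lower, so the count at this fold was near the background. The median over the members was -0.37, and over all measured genes -0.02.

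By role, the receptor Trem2 had a ratio of -0.40 (-0.48 to -0.33) and Cd36 of -0.06 (-0.19 to 0.06) in C1q-high macrophages. Apoe, at 4659 and 3439 CPM, had -0.44 (-0.46 to -0.41). Lpl, at 527 and 607 CPM, had 0.20 (0.13 to 0.27), opposite in direction to Apoe. Plin2 had -0.44 (-0.51 to -0.36), Abca1 -0.44 (-0.66 to -0.21), Lipa -0.34 (-0.48 to -0.21) and Fabp5 -0.24 (-0.29 to -0.20). Gpnmb, at 135 and 88.6 CPM, had the lowest ratio, -0.61 (-0.78 to -0.44), and was the member past 1.5-fold. Its ratio fell short of 1.5-fold with at most 5% mitochondrial UMIs (-0.52), without cells of high doublet score (-0.56), with free RNA subtracted (-0.54) and with every cell given the same weight (-0.49).

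**Figure D4:**
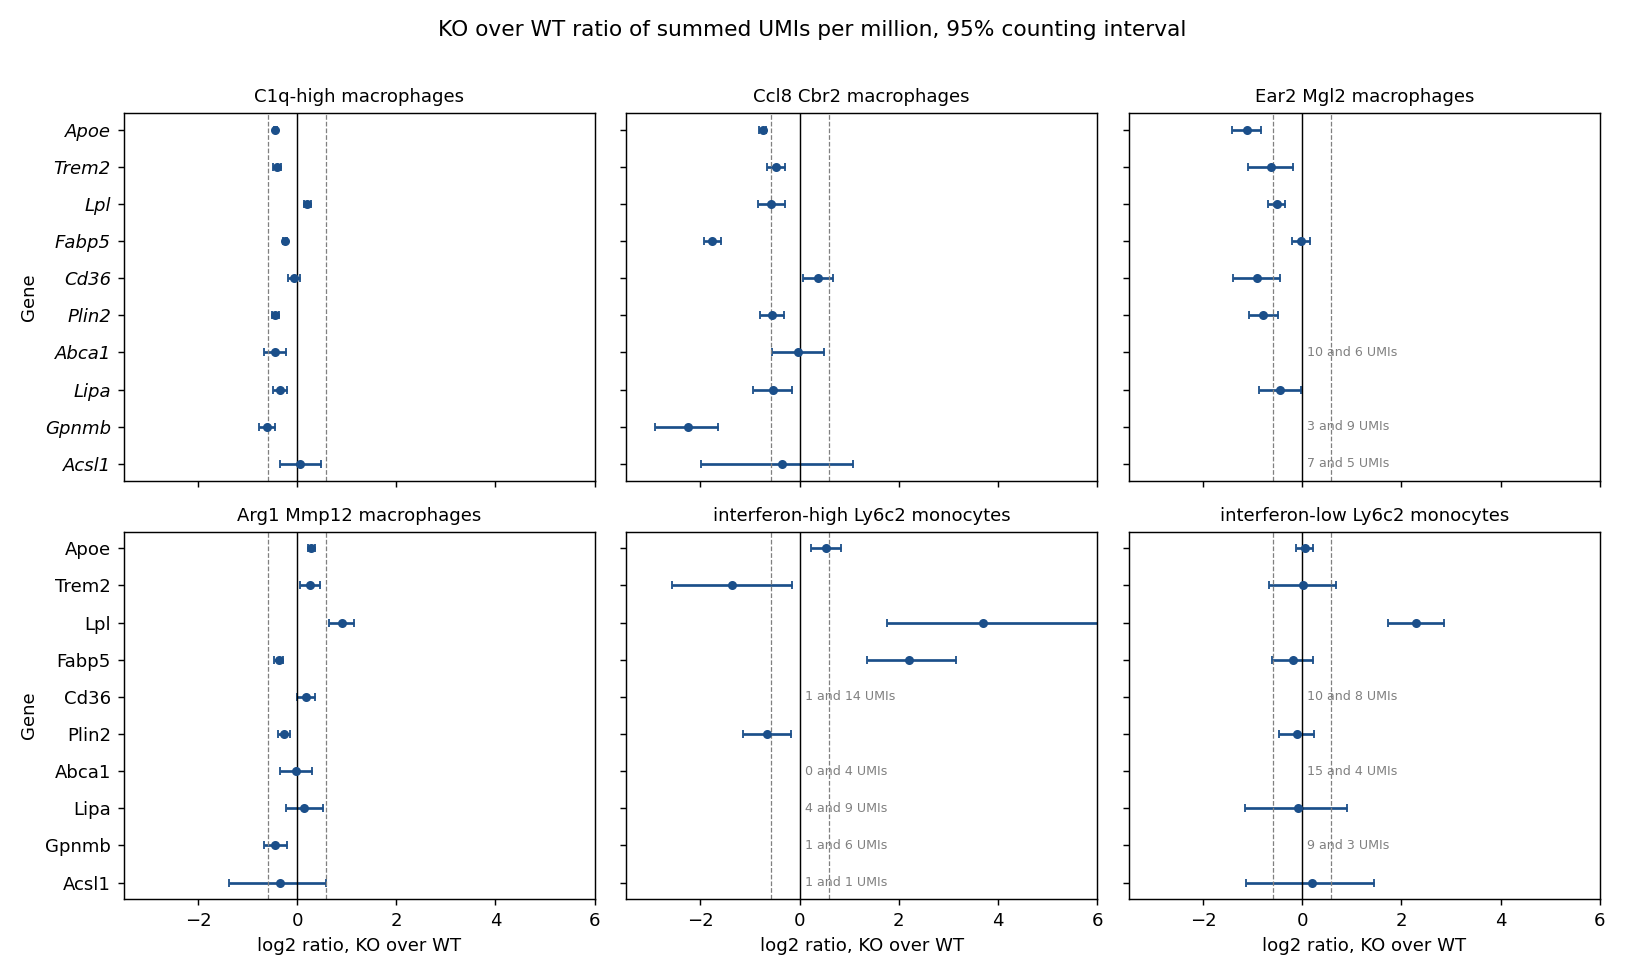
Log2 ratio of KO over WT by label (x axis) for each lipid handling gene in 6 macrophage and monocyte classes, with 95% counting intervals and dashed lines at 1.5-fold; genes with under 20 UMIs are shown by their UMIs only. In C1q-high macrophages the ratios lie between -0.61 and 0.20, and in Ccl8 Cbr2 macrophages Fabp5 (-1.76) and Gpnmb (-2.25) lie far to the left; the interval of Lpl in interferon-high monocytes runs past the right edge.

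Several other measures moved with this comparison. C1q transcripts of C1q-high macrophages were at 8692 and 7007 CPM, the 5 interferon genes at 286 and 878 CPM and the 4 neutrophil markers at 89.6 and 37.9 CPM. The 3 markers of migratory dendritic cells, the class richest in Fabp5, summed to 5.43 and 34.2 CPM with none at 0. The monocyte gene Ly6c2 was at 114 and 272 CPM and Mgl2 at 36.6 and 98.2 CPM, and the estimated share of free RNA was 2.31% and 6.99%. Cells were then compared within the bins of C1q, of which those from 15 UMIs per 10000 upward hold Ccl8 Cbr2 as well as C1q-high macrophages. In those bins the ratio of Apoe was -0.31, -0.24 and -0.51, that of Plin2 -0.50, -0.55 and -0.46, and that of Gpnmb -1.05, -0.83 and -0.70. For Lpl it was 0.28, 0.20 and 0.01. Both bins under 15, the C1q threshold, hold cells of the Arg1 Mmp12 and monocyte classes. In the bin of 2 to 15 (84 and 77 cells) the ratio was -0.37 for Apoe, -0.33 for Plin2, -1.20 for Gpnmb and 1.64 for Lpl. In the bin below 2, Apoe had a ratio of 0.34 (0.27 to 0.41) and Lpl of 0.84 (0.58 to 1.11).

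Among C1q-high macrophages with under 2 interferon UMIs per 10000 (581 and 354 cells), Apoe had a ratio of -0.45, Plin2 of -0.41 and Gpnmb of -0.65. In those cells Trem2 had -0.25, Abca1 -0.34, Lipa -0.13, Fabp5 -0.19 and Lpl 0.31. In cells with 8 or more (62 and 174 cells), Apoe had -0.44, Plin2 -0.39, Trem2 0.16 and Lpl 0.65. There Fabp5 was on the other side of 0 with 0.28 (0.11 to 0.45), and Gpnmb had -0.11 (-0.74 to 0.54). Between those limits (114 and 135 cells) Apoe had -0.28, Plin2 -0.60, Trem2 -0.56, Fabp5 -0.22, Gpnmb -0.41 and Lpl 0.01. Apoe and Plin2 were thus below 0 in all 3 groups of cells, and the intervals of Trem2 (-0.14 to 0.47) and Gpnmb included 0 at 8 or more. The part of neutrophil and migratory dendritic cell RNA, Ly6c2 and Mgl2 in these ratios was not tested.

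In Ccl8 Cbr2 macrophages 9 of 10 members were lower in the library labelled KO, as were 52.9% of all measured genes. The interval lay below 0 for 7 members, where it did for 8.27% of all measured genes. Past 1.5-fold there were 0 members higher and 3 lower, where 13.2% of 6303 measured genes were higher and 14.7% lower. Fabp5 had 2188 UMIs (2071 CPM) in the library labelled WT and 310 (612 CPM) in that labelled KO, a ratio of -1.76 (-1.93 to -1.59). Gpnmb had 239 UMIs (226 CPM) and 24 (47.4 CPM), a ratio of -2.25 (-2.93 to -1.65). Apoe, at 8560 and 5102 CPM, had -0.75 (-0.81 to -0.68). These 3 genes were low in the library labelled KO, while Cd36, at 241 and 312 CPM, was on the other side with 0.37 (0.07 to 0.66).

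The share of Ccl8 Cbr2 macrophages with a Fabp5 UMI in thinned cells was 59.4% (49.2 to 69.1) and 30.3% (20.2 to 41.9). The share with a Gpnmb UMI was 13.9% (7.79 to 22.2) and 5.26% (1.45 to 12.9), intervals that overlap. Trem2 had a ratio of -0.47, Lpl of -0.57, Plin2 of -0.56 and Lipa of -0.54 in this class, each with an interval below 0, and Abca1 of -0.03 (-0.56 to 0.49). The class held 76 cells in the library labelled KO, where an estimated 16.7% of UMIs were free RNA against 4.98% in that labelled WT. Its melanoma markers summed to 71.0 and 27.7 CPM, and its interferon genes to 185 and 757 CPM. Arg1 was at 96.6 and 830 CPM and Ly6c2 at 20.8 and 109 CPM in the class, and the part of these in the ratios was not tested. The ratio of Apoe was -0.40 with all class thresholds at 0.5 times their value, short of 1.5-fold.

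In Ear2 Mgl2 macrophages 7 members were measured, all 7 lower in the library labelled KO, where 53.1% of all measured genes were lower. The interval lay below 0 for 6 members, where it did for 8.36% of all measured genes. The count past 1.5-fold was 0 higher and 4 lower, where 11% of 5684 measured genes were higher and 12.7% lower. Apoe was at 454 and 209 CPM (-1.12), Cd36 at 167 and 88.6 CPM (-0.91), Plin2 at 393 and 229 CPM (-0.78) and Trem2 at 162 and 104 CPM (-0.64). Lpl had -0.51, Lipa -0.44 and Fabp5 -0.02 (-0.21 to 0.16). Abca1, Gpnmb and Acsl1 had between 3 and 10 UMIs in each library and were not measured. These ratios rested on where the class was cut: with thresholds doubled Lpl (0.083), Cd36 (0.51) and Lipa (0.24) were above 0 and no member was past 1.5-fold lower, and with them at 0.5 times 1 was.

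Arg1 Mmp12 macrophages differed from the other macrophage classes, with 5 members lower and 5 higher in the library labelled KO. Of all measured genes in this class, 40.4% were lower. Past 1.5-fold there were 1 member higher and 0 lower, where 17.1% of 7429 measured genes were higher and 10.8% lower, and the median over all genes was 0.12. Lpl had 317 UMIs (157 CPM) and 244 (293 CPM), a ratio of 0.90 (0.65 to 1.15). Its thinned share of cells was 5.54% (3.20 to 8.84) and 14.6% (9.36 to 21.2). Apoe had 0.29 (0.22 to 0.36), Trem2 0.27 (0.06 to 0.47) and Cd36 0.19 (0.01 to 0.37), on the other side of 0 from their values in C1q-high macrophages for Apoe and Trem2. That difference between classes was not tested.

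Fabp5 (-0.37), Plin2 (-0.27) and Gpnmb (-0.44) were lower in Arg1 Mmp12 macrophages of the library labelled KO, as in the C1q-high class, each with an interval below 0. The ratio of Lpl was 0.44 with thresholds at 0.5 times, short of 1.5-fold. Melanoma markers in the class summed to 38.1 and 5.99 CPM, with Mlana and Tyr at 0 in the library labelled KO. Ly6c2 was at 28.7 and 271 CPM, Mmp12 at 1847 and 946 CPM and the interferon genes at 371 and 845 CPM in the same class, and the part of these in the ratios was not tested.

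In interferon-high monocytes, of which the library labelled WT held 15, 5 members were measured. Past 1.5-fold there were 2 higher and 2 lower, where 20.5% of 2236 measured genes were higher and 12.4% lower. Fabp5 had 13 UMIs (117 CPM) in the library labelled WT and 122 (538 CPM) in that labelled KO, a ratio of 2.20 (1.37 to 3.15). Lpl had 2 and 53 UMIs, a ratio of 3.69 (1.77 to 6.78). These UMIs came from few cells: 20 of 47 cells of the library labelled KO had one of Fabp5 and 11 of 47 one of Lpl. Plin2 was at 578 and 366 CPM (-0.66) and Trem2 had 15 and 12 UMIs (-1.36). Apoe, at 1093 and 1570 CPM, had 0.52 (0.22 to 0.83), which was -0.15 with thresholds doubled.

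In interferon-low monocytes 7 members were measured, and 6 of them had an interval that includes 0, with Apoe at 1226 and 1269 CPM. Most measured genes did so too, as 7.48% had an interval below 0 and 9.57% one above 0. Lpl was the 1 member past 1.5-fold higher and 0 were lower, where 17.1% of 4976 measured genes were higher and 13.2% lower. It had 40 UMIs (54.3 CPM) and 90 (266 CPM), a ratio of 2.29 (1.74 to 2.87). They came from 10 of 127 and 14 of 66 cells, and the 2 richest cells held 75% and 54.4% of them. The ratio of Lpl was 4.83 with thresholds doubled, 3.20 without the 2 richest cells of each library and 1.30 with every cell at the same weight. In the unnamed rest of myeloid cells Lpl was also higher (229 and 330 CPM, 0.53), while Apoe was at 1679 and 800 CPM (-1.07), Fabp5 at 742 and 369 CPM (-1.01) and Abca1 at 35.0 and 14.4 CPM (-1.29). There 0 members were past 1.5-fold higher and 5 lower, where 7.35% of 9937 measured genes were higher and 9.97% lower.

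In dendritic cells the ratios rested on few UMIs outside Fabp5. Type 1 dendritic cells had 35 and 11 Apoe UMIs, and 1 cell held 25 of the 35. The ratio of -2.98 was -1.53 without the 2 richest cells of each library and -1.21 without cells of high doublet score. Fabp5 had 21 and 15 UMIs there, a ratio of -1.79 (-2.85 to -0.77), and Acsl1 17 and 11, a ratio of -1.94, which was 0.95 with thresholds doubled. Of 6 members measured, 1 was past 1.5-fold higher and 3 lower, where 14% of 6436 measured genes were higher and 9.32% lower, 23.4% in either direction. In type 2 dendritic cells Apoe had 164 and 19 UMIs, a ratio of -2.85 that was -1.55 without cells of high doublet score, and it was the 1 of 5 measured members past 1.5-fold lower, with 0 higher, where 9.02% of 7580 measured genes were higher and 9.74% lower.

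Migratory dendritic cells held Fabp5 at like levels in both libraries, with a ratio of 0.16 (0.08 to 0.24), and -0.096 with thresholds at 0.5 times. Acsl1 was the 1 of 4 measured members past 1.5-fold lower, with a ratio of -3.31 (-5.63 to -1.69) from 58 and 3 UMIs, and 0 were higher, where 11.8% of 5159 measured genes were higher and 16.7% lower. In plasmacytoid dendritic cells, with 16 cells in the library labelled KO, all 4 measured members had intervals that include 0. Most measured genes did so too, as 4.46% had an interval below 0 and 4.86% one above 0. In melanoma cells, whose genotype is that of the injected line, Gpnmb had a ratio of -0.05 (-0.19 to 0.09) and Apoe, at 454 and 499 CPM, of 0.14 (-0.10 to 0.37). Fabp5 was at 1178 and 2104 CPM there, a ratio of 0.84 (0.72 to 0.95), but 1 of the 12 cells of the library labelled KO held 290 of its 725 UMIs, and the ratio was 0.27 without the 2 richest cells of each library. Of 6 members measured, 2 were past 1.5-fold higher and 0 lower, where 12.9% of 8164 measured genes were higher and 18.9% lower. The 2 were Fabp5 and Acsl1, the latter with 21 and 4 UMIs and a ratio of 0.61 whose interval includes 0 (-1.40 to 2.17).

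The other genes of lipid handling were read from 10 lists of 128 genes that hold no member. In C1q-high macrophages 118 were measured, 11 of them past 1.5-fold higher and 10 lower in the library labelled KO, 9.32% and 8.47%, close to the shares over all genes given above. The sterol synthesis list, targets of the transcription factor SREBP, had 4 of 16 genes higher and 0 lower and a median of 0.42, against -0.02 over all genes. Among 10 uptake receptors 3 were higher and 2 lower. Axl, a receptor for dying cells, was at 55.4 and 117 CPM (1.07).

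Of the scavenger receptors in C1q-high macrophages, Stab1 was lower at 269 and 145 CPM (-0.89). Fabp4, a relative of Fabp5, was at 110 and 47.3 CPM (-1.21), the 1 of 10 genes of the binding and activation list past 1.5-fold. The lipid droplet list had 0 of 11 genes higher and 1 lower, G0s2, an inhibitor of triglyceride lipase, with 43 and 2 UMIs (-3.85, interval -6.94 to -1.90). Neutrophil markers in the class were at 89.6 and 37.9 CPM, and the part of neutrophil RNA in these few UMIs was not tested. The list of lipid-associated macrophage markers had 1 of 13 higher, Itgax at 36.8 and 64.4 CPM (0.81), and 3 lower, with Igf1 at 147 and 58.8 CPM (-1.33). No gene of 15 for lysosomal lipid breakdown or of 11 nuclear receptors and regulators passed 1.5-fold. The list of lipoproteins and cholesterol efflux had 0 of 8 higher and 1 lower, fatty acid oxidation 2 and 1 of 16, and fatty acid synthesis 1 and 1 of 8. In Ear2 Mgl2 macrophages 11 of 13 measured sterol synthesis genes were past 1.5-fold higher, with a median of 1.03, where 11% of all measured genes were higher and the median was -0.04.

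In monocytes the wider lists gave Axl again on the higher side, with 1.94 in interferon-low and 1.61 in interferon-high cells. Spp1, osteopontin, was at 96.4 and 304 CPM (1.66) in interferon-low and at 289 and 644 CPM (1.16) in interferon-high cells. Abca7, a lipid transporter related to Abca1, was lower in both, at 48.9 and 20.7 CPM (-1.24) and at 117 and 30.9 CPM (-1.93).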

How the data were processed

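The deposited RNA tables hold UMI counts per gene and barcode, neither normalised nor filtered for cells (31053 genes, 737280 barcodes each), as the authors deposited them. Per the file headers, Cell Ranger 3.1.0 wrote them. The submitters' processing notes give mm10 as the build and list R 3.6.1 and Seurat 3.2.0 without their use. The T cell receptor tables were not used here.

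Cells were barcodes with at least 1000 UMIs, 500 genes and at most 10% mitochondrial UMIs (median depth 4314.5 UMIs in the library labelled WT and 4266 in that labelled KO; 79.4% and 74.6% of all UMIs). Classes were gated in a set order on marker UMIs per 10000 with a minimum of UMIs, for example 15 and 3 for C1q and 12 and 3 for Arg1 with Mmp12; thresholds were set from the marker sums. Cells of 2 lineages (109 and 112) were set aside. Other doublets were left in, and 1 alternative removed the 153 (3.50%) and 82 (2.55%) cells of highest simulated-doublet score. UMIs were summed per class and library and divided by the class total (CPM). Intervals are at 95%: exact Poisson for levels, exact conditional binomial for ratios and Clopper-Pearson for shares. They cover counting error only, since cells of 1 pool are not replicates. Shares of cells were taken after thinning each cell to 1000 UMIs, and numbers of members per cell after thinning to 3000. Barcodes with 10 to 100 UMIs (61754 and 57860) served as empty droplets.

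All members were described in every class. Genes of the wider lists were named where they differed at least 1.5-fold with an interval excluding 0, at most 4 in each direction, ranked by the interval bound nearest 0, in C1q-high macrophages and both monocyte classes; some genes this rule names are not reported here. Nearest genes were the 3 with the highest correlation among genes with at least 1000 UMIs over the classes; gate markers, ribosomal protein genes and unnamed gene models were left out. The members, lists and tests were chosen with earlier results of these data known, the motifs after the promoters were scanned, and 2 alternatives after the data were seen. Promoters come from RefSeq on GRCm38.p6, and the motifs named with them, besides the E-box CACGTG found in the Abca1 window (6.02% of windows), were searched on both strands. The alternatives changed the cell filters, thresholds, weights, scaling, free RNA, minimum UMIs and fold. The statistics were tested on simulated data. Python 3.11.15, numpy 2.4.6, scipy 1.17.1, pandas 2.3.3, scikit-learn 1.9.0 and matplotlib 3.10.9 were used.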

Additional observations from a re-analysis of the deposited data

Results flagged for a closer look

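Fabp5 was past 1.5-fold, with an interval excluding 0, in opposite directions in different classes of the same 2 libraries. Its log2 ratio, KO over WT by label, was 2.20 in interferon-high Ly6c2 monocytes and 0.84 in melanoma cells, and -1.76 in Ccl8 Cbr2 macrophages and -1.79 in type 1 dendritic cells. The difference between these classes was not tested. The values of the monocytes and type 1 dendritic cells came from 13 and 122 UMIs and from 21 and 15 UMIs, and that of melanoma cells was 0.27 without the 2 cells richest in Fabp5 in each library. In the monocytes 8 of 15 and 20 of 47 cells had a Fabp5 UMI, and the 2 richest cells of the library labelled KO held 43.4% of its UMIs.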

How the results depend on the processing

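The ratios of the unnamed rest of myeloid cells were not recomputed under the alternatives and are not among the 74 counted here. Of 74 member ratios, 71 had the same direction with at least 2000 UMIs per cell, 73 with at least 500 and 71 with at most 5% mitochondrial UMIs. After centring on the class median 70 did, without cells of high doublet score 73 and with equal weight for every cell 69. After subtracting free RNA 67 of 70 did. With class thresholds at 0.5 times 68 did, and at 2 times 61 did. Without the 2 cells richest in the gene, an alternative chosen after seeing the data, 63 of 70 did, and in C1q-high macrophages with few interferon UMIs, also chosen after, 8 of 10. Of the ratios whose own interval excluded 0, those that changed sign were, with thresholds at 2 times, Lpl (0.083), Cd36 (0.51) and Lipa (0.24) in Ear2 Mgl2 macrophages, Apoe (-0.15) in interferon-high monocytes and Acsl1 (0.95) in type 1 dendritic cells, and at 0.5 times Fabp5 (-0.096) in migratory dendritic cells. The cause was not tested. The 1 member past 1.5-fold lower in C1q-high macrophages became 0 with at most 5% mitochondrial UMIs, without high doublet scores, with free RNA subtracted and at 2-fold. In Ear2 Mgl2 macrophages the 4 lower became 0 at thresholds of 2 times, 1 at 0.5 times and 1 at 2-fold, and 1 was higher with a minimum of 10 UMIs, since more genes were then measured. In Arg1 Mmp12 macrophages 1 was lower at thresholds of 2 times, and 0 were higher at 0.5 times and at 2-fold. The wider genes past 2-fold in C1q-high macrophages were 3 higher and 4 lower. No paired analysis was possible because each genotype had 1 pooled library, whose number only names it. With equal weight for every cell, 25 of 40 member levels in C1q-high and Arg1 Mmp12 macrophages left their counting interval, at 0.72 to 1.61 times their value for all 40, and 15 of 74 ratios did. Depth limits the classes with few cells, in which members under 20 UMIs were not compared.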
